A study of Mus musculus with 90 samples.

Results

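Transcripts of the 10 genes that encode the core and accessory subunits of Polycomb repressive complex 2 (PRC2) were followed while mouse embryonic stem cells differentiated. The genes are the catalytic subunits Ezh2 and Ezh1, the core subunits Eed, Suz12, Rbbp4 and Rbbp7, and the accessory subunits Jarid2, Aebp2, Mtf2 and Phf19. They were taken by gene name from the count tables, where they are 10 of 24961 genes in the embryoid body table and 10 of 24984 in the neural table. All 10 passed the filter on low counts in every table. The cells were J1 mouse embryonic stem cells and differed in CBX7, a chromodomain protein of the partner complex, Polycomb repressive complex 1. Wild-type cells (WT) carried the normal protein. In the CBX7-CaPS line, CBX7 had received the domain by which its relative CBX2 compacts chromatin and separates into condensates (CaPS, compaction and phase separation), and in the CBX7-mCaPS line a mutated form of it. The other two lines are labelled CBX7 KO and CBX7-CaPS-R. No source used here says whether a line is 1 clone, or what the letter R stands for. Each line was collected as stem cells, grown with LIF on mouse embryonic fibroblast feeders, on day 0, as embryoid bodies grown from hanging drops on days 6 and 10 (EB series), and as aggregates on days 6 and 8 (NPC series). Feeders were removed before embryoid bodies were formed. The aggregates formed over 4 days without LIF and then received 5 uM retinoic acid to direct them toward neural progenitors. There were 30 such groups with 3 libraries each, made from total RNA depleted of ribosomal RNA. Nothing in the labels says that the 3 libraries came from separate cultures, so p-values measure the spread between libraries, which may be technical.

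PRC2 places methyl groups on the lysine of histone H3 that marks repressed developmental genes. EZH2 or EZH1 holds the active site but works only when bound to SUZ12 and EED. EED recognises the finished mark and stimulates the enzyme, SUZ12 is the scaffold, and the histone chaperones RBBP4 and RBBP7 complete the core. One form of the complex carries JARID2 and AEBP2, and another carries a Polycomb-like protein such as MTF2 or PHF19, which brings PRC2 to unmethylated CpG-rich DNA. CBX7 reads the mark that PRC2 makes, so the lines alter a reader of the mark and not PRC2 itself. In embryonic stem cells EZH2 is the main enzyme, and JARID2, MTF2 and EED are abundant. EZH1 is known for its use in cells that have left the stem cell state.

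Library totals of the 4 lines other than CaPS-R, in M counts (mega, as sequencing depth is usually given), were 10.6 to 55.9 in the EB series and 11.8 to 59.3 in the NPC series. The CaPS-R tables, which hold part of the genes, ranged over 11 to 110 M counts for EB and 11.7 to 29.1 M counts for NPC. Rn45s, the ribosomal RNA precursor, took 2.73% to 88.7% of the counts of the 4 lines in EB and 4.24% to 50.3% in NPC. In CaPS-R it took 25% to 65.2% in EB and 27.8% to 80.5% in NPC. Counts between 1 and 20 were even numbers in 42.1% to 43.5% of cases in 6 libraries, those numbered 1 of WT and CaPS in EB, against 66.5% to 94.1% in the other 84. None of the 2556 pairs among the 72 libraries of the 4 lines held identical counts. The labelled cell types had their markers: the summed level of 10 pluripotency genes in WT, in CPM (counts-per-million values after TMM scaling), was between 3099 and 3263 in EB stem cells and between 133 and 386 after 10 days, and it fell from a range of 3276 to 3614 to one of 20.2 to 66.8 over the NPC series. Neural progenitor markers (7 genes) reached 2057 to 2794 CPM in WT on day 8 of NPC. Markers of fibroblasts, the feeder cells on which the stem cells had grown, summed to 314 to 2865 CPM in WT on day 0 of EB and 309 to 3289 CPM on day 0 of NPC, against 172 to 301 CPM on day 10 of EB and 72.6 to 240 CPM on day 8 of NPC. The lines differed in these markers on day 0 of NPC. Their sums were 238 to 3296 CPM in CaPS, 86.7 to 145 CPM in mCaPS, 72.4 to 117 CPM in the line labelled KO and 27 to 109 CPM in CaPS-R. The part of these markers in the day 0 levels below and in changes from day 0 was not tested, nor was which cells expressed them on the later days. Cbx7 itself had a mean of 97 CPM in the line labelled KO and 112 CPM in WT on day 0 of EB, and 123 and 170 CPM on day 0 of NPC. The labels do not say which part of the gene was changed, so a gene count checks nothing about the KO.

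The promoters of 5 members are shown because 4 of these genes (Eed, Jarid2, Mtf2 and Phf19) were lower at the end of differentiation and the fifth, Rbbp7, was the member that differed most between lines. Each line gives the 250 bases before the RefSeq start site in build GRCm38.p6, 5′ to 3′ on the gene's strand, and capitals mark motif matches. The motifs were the E2F forms TTCCCGC and TTGGCGC, the NRF1 motif (GCGCA, any base, GCGC), the CCAAT box, the GC box GGGCGG, the ETS motif CCGGAAG and the octamer ATGCAAAT, on both strands, and overlapping matches were all marked.
Eed (chr7:89980977-89981226, minus strand): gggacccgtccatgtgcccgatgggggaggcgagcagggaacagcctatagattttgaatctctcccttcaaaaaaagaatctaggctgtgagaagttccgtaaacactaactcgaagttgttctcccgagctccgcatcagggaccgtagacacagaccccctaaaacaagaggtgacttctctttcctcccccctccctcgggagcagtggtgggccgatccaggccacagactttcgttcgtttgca
Jarid2 (chr13:44730524-44730773, plus strand): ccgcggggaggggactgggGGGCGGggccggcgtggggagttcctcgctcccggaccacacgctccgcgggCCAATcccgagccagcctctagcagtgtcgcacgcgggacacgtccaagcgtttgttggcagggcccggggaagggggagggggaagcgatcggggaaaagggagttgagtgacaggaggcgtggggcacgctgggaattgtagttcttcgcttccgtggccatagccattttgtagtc
Mtf2 (chr5:108065424-108065673, plus strand): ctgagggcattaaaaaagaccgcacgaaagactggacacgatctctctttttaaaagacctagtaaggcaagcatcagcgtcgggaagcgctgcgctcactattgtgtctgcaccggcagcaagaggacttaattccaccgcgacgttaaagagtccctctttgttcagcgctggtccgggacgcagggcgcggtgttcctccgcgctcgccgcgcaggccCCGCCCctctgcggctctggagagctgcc
Phf19 (chr2:34913977-34914226, minus strand): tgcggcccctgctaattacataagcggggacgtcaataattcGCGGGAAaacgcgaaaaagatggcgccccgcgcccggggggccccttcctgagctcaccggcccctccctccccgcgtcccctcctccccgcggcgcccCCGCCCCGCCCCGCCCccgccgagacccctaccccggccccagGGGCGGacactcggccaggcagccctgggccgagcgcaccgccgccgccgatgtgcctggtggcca
Rbbp7 (chrX:162760122-162760371, plus strand): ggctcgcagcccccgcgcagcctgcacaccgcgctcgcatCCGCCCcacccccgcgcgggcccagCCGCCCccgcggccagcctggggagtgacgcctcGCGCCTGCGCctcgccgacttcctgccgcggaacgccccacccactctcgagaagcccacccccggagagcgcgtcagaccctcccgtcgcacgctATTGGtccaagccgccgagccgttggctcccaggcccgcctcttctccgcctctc

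All 10 members matched a promoter entry whose start is the first base of the gene in the count table. The Eed window held none of these motifs. Jarid2 had a CCAAT box and a GC box, Mtf2 a GC box, and Phf19 a TTCCCGC match and 4 GC boxes. Rbbp7 had an NRF1 match, a CCAAT box and 2 GC boxes. Of the other members, Ezh2 had an NRF1 match and 3 CCAAT boxes, Ezh1 an NRF1 match, Suz12 a TTCCCGC match, a CCAAT box and 3 GC boxes, and Rbbp4 a TTGGCGC match, a CCAAT box and 2 GC boxes. The Aebp2 window held none. The NRF1 motif was present in 3 of 10 members and in 3.74% of 32851 promoters of the same length, and the GC box in 6 of 10 members and 32.7% of promoters. TTCCCGC was in 2 of 10 members and 3.82% of promoters, TTGGCGC in 1 of 10 and 1.97%, and CCAAT in 5 of 10 and 33.8%. No member held the ETS motif or the octamer, which were in 6.91% and 1.6% of promoters. No motif was shared by the 4 genes that were lower. The G and C content of the windows ranged from 46.4% in Aebp2, with 1 CpG, to 76.4% in Rbbp7, with 34 CpG, and the medians over all promoters were 52.4% and 6 CpG. A match is a description of the letters and was not tied to any change in level.

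Per kilobase of exon, the histone chaperone genes and Jarid2 were the most abundant members in WT stem cells, and the Polycomb-like gene Phf19 was the least. On day 0 of EB the levels were 113 ± 20.6 CPM per kb for Rbbp7 (SD, n = 3), 98.5 ± 24.5 for Jarid2, 74.9 ± 1.44 for Rbbp4, 66.6 ± 25.6 for Eed, 54.7 ± 18.1 for Mtf2, 45.4 ± 14 for Ezh2 and 44.0 ± 5.93 for Suz12. Eed, Mtf2, Ezh2 and Suz12 overlapped their neighbours in this order. Aebp2 at 8.12 ± 1.28, Ezh1 at 6.26 ± 1.24 and Phf19 at 2.76 ± 0.673 CPM per kb lay below all of these. Day 0 of NPC had Jarid2 first at 123 ± 15.0, overlapping Rbbp7 at 122 ± 13.7, and the same 3 genes last. By the end of differentiation the order had changed. On day 10 of EB Rbbp7 stood at 130 ± 19.7 CPM per kb, Ezh2 came after Rbbp7 and Rbbp4 at 36.9 ± 3.0, overlapping Jarid2, and Eed (18.5 ± 3.65) and Mtf2 (17.7 ± 3.02) came after Suz12, with which Eed overlapped. On day 8 of NPC Ezh2 was first at 78.0 ± 16.0, overlapping Rbbp4 at 78.0 ± 12.7 and Rbbp7 at 76.7 ± 18.5, while Eed was at 20.8 ± 1.74. Phf19 stayed last in all 6 WT groups, at 0.760 ± 0.145 on day 10 of EB and 0.780 ± 0.327 on day 8 of NPC.

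In WT cells some subunits passed the test of change over time and others did not, and differences between members were not tested. Eed, Jarid2, Mtf2 and Phf19 fell in both series, the catalytic subunits, Suz12, Rbbp4 and Aebp2 did not pass the test, and Rbbp7 fell in NPC. In EB, 4 of 10 members were lower and 0 higher on day 10 than on day 0, where 29.2% of all 17791 genes tested passed and 14.5% were lower. In NPC, 5 of 10 were lower and 0 higher on day 8, where 52.4% of 17818 genes passed and 24.9% were lower. The share of members called was thus close to the background in NPC (edgeR quasi-likelihood test, Benjamini-Hochberg adjusted p below 0.05 over all genes). The median log2 change of the members was -0.41 in EB and -0.49 in NPC, beside -0.02 and 0.05 over all genes tested. In bulk samples, fewer cells that express a gene and less RNA per cell cannot be told apart.

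**Figure D1:**
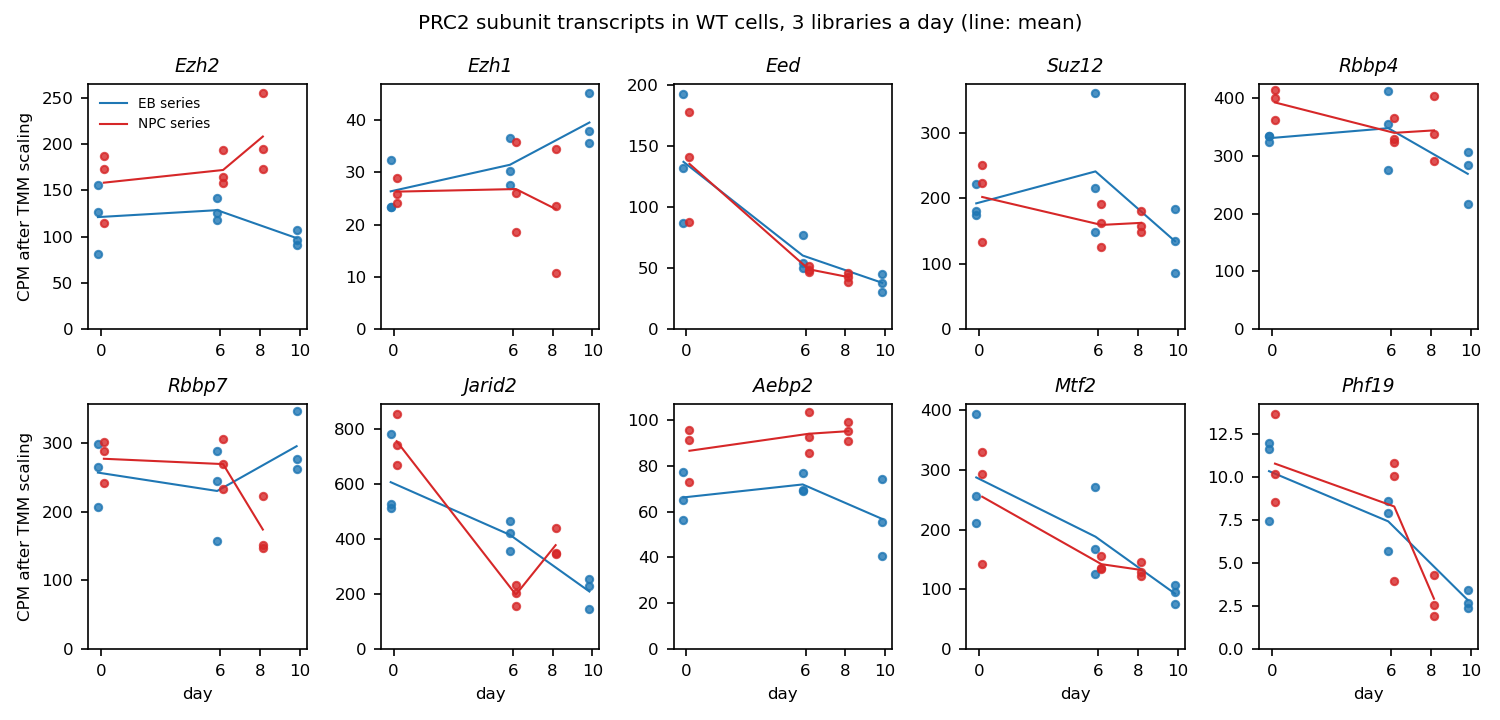
Level of each PRC2 subunit in WT libraries (y axis, CPM after TMM scaling, from 0) by day (x axis), with 1 point for each of 3 libraries and lines through the means, EB series in blue and NPC series in red. Eed is lower by day 6 in both series, and Jarid2 is lowest on day 6 in NPC (157 to 232 CPM) but on day 10 in EB (147 to 253 CPM).

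Ezh2 encodes the main methyltransferase, and none of its WT comparisons over time passed the test. Its values in the 3 EB libraries were 81.3, 155 and 127 CPM on day 0, 125, 118 and 142 CPM on day 6, and 91.3, 96.9 and 107 CPM on day 10. In NPC they were 114, 188 and 173 CPM on day 0, 165, 194 and 158 CPM on day 6, and 256, 174 and 195 CPM on day 8. The ranges overlapped in both series. The log2 change to the last day was -0.30 (95% interval -1.10 to 0.50) in EB and 0.39 (-0.11 to 0.90) in NPC. Both intervals include changes of either sign, and changes within these bounds are compatible with the data.

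Ezh1, the less active paralog, was scarce. It measured 32.4, 23.3 and 23.4 CPM on day 0 of EB and 35.6, 45 and 37.8 CPM on day 10, so the day 10 libraries lay above all day 0 libraries, with a log2 difference of 0.59 ± 0.29 (SE) that did not pass (adjusted p = 0.135, edgeR). On day 8 of NPC its values spread from 10.8 to 34.5 CPM and overlapped the 24.1 to 28.9 CPM of day 0. Per kilobase, the ratio of Ezh1 to Ezh2 was 0.0949 to 0.252 on day 0 of EB and 0.224 to 0.295 on day 10, ranges that overlapped. In NPC it ranged from 0.0874 to 0.133 before differentiation and from 0.0269 to 0.126 at its end. Ezh2 transcripts therefore outnumbered those of Ezh1 per kilobase in every WT library.

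Eed, which reads the mark and activates the enzyme, was lower by day 6 in both series. Its WT values in EB were 192, 132 and 87.3 CPM on day 0, 77.2, 49.8 and 54.2 CPM on day 6, and 45.7, 30.7 and 37.8 CPM on day 10. In NPC they were 87.9, 178 and 141 CPM on day 0, 48.8, 52.2 and 46.5 CPM on day 6, and 46.1, 39.0 and 43.2 CPM on day 8. No library after day 0 reached any day 0 library of its series. By day 6 the log2 change was -1.18 ± 0.30 in EB (adjusted p = 0.0113) and -1.46 ± 0.20 in NPC (adjusted p = 2.8e-06), and by the last day -1.85 ± 0.31 (4.88e-05) and -1.67 ± 0.20 (1.68e-07, edgeR). At day 6, Eed was the 1 member of 10 called in EB, where 7.88% of genes passed, and 1 of 3 called in NPC, where 37.3% passed. The EB day 6 call was lost without the day 0 library 1, the day 6 library 2 or the day 6 library 3 (log2 change -1.42 to -0.86 over the 6 libraries left out in turn).

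Suz12 encodes the scaffold of the complex, and its WT change to the last day did not pass in either series. It measured 222, 174 and 181 CPM on day 0 of EB, 360, 148 and 215 CPM on day 6, and 184, 85.2 and 134 CPM on day 10, and the days overlapped. In NPC it measured 133, 223 and 251 CPM on day 0 and 157, 149 and 181 CPM on day 8. The change to the last day was -0.52 ± 0.32 in EB (adjusted p = 0.232) and -0.31 ± 0.20 in NPC (adjusted p = 0.195, edgeR). Without libraries 1 of WT and CaPS in EB the EB change was -0.71 with an adjusted p of 0.026, and without the NPC day 0 library 1 the NPC change was -0.58 with an adjusted p of 0.0132. Per kilobase the ratio of Eed to Suz12 was 1.02 to 1.84 on day 0 of EB and 0.527 to 0.764 on day 10, and 1.19 to 1.70 on day 0 of NPC and 0.506 to 0.622 on day 8, so Eed was above Suz12 in every WT stem cell library and below it in every WT library of the last days.

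The histone chaperone genes Rbbp4 and Rbbp7, whose proteins also serve other chromatin complexes, passed in 1 WT comparison of the last day with day 0. Rbbp4 measured 323 to 334 CPM on day 0 of EB and 216 to 306 CPM on day 10, and 362 to 413 CPM on day 0 of NPC and 291 to 403 CPM on day 8. Neither change passed (-0.30 ± 0.18 and -0.19 ± 0.16). Reads of processed copies of Rbbp4 elsewhere in the genome could be counted with it or lost, which was not tested. Rbbp7 measured 299, 266 and 207 CPM on day 0 of EB and 277, 263 and 347 CPM on day 10. In NPC it went from 242, 288 and 301 CPM on day 0 through 233, 269 and 306 CPM on day 6 to 148, 152 and 223 CPM on day 8. The 3 NPC day 8 libraries lay below all those of day 0 (log2 change -0.67 ± 0.28, adjusted p = 0.0418, edgeR). That call was lost without day 0 library 2 or 3 or day 8 library 1 or 2 (log2 change -0.89 to -0.58).

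Jarid2, which anchors PRC2 to nucleosomes and is a hallmark of stem cell PRC2, took a different path in each series. In EB its WT values were 526, 780 and 512 CPM on day 0, 466, 355 and 423 CPM on day 6, and 147, 253 and 227 CPM on day 10. In NPC they were 741, 854 and 670 CPM on day 0, 157, 232 and 204 CPM on day 6, and 344, 440 and 350 CPM on day 8. The 3 NPC day 6 libraries were thus below every library of day 0 and of day 8. The change in NPC was -1.93 ± 0.26 from day 0 to day 6 (adjusted p = 2.27e-06) and 0.93 ± 0.26 from day 6 to day 8 (adjusted p = 0.0245), where 7.34% of all genes passed and Jarid2 was the 1 member that rose. In EB the change was -0.99 ± 0.24 from day 6 to day 10 (adjusted p = 0.00499) and -1.54 ± 0.24 from day 0 to day 10 (adjusted p = 3.16e-05), by edgeR.

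The difference between the series was tested directly over the day 0 and day 6 WT libraries of both. The log2 change of Jarid2 to day 6 was lower in NPC than in EB by 1.37 on the log2 scale (difference -1.37 ± 0.35, adjusted p = 0.00966, edgeR), and Jarid2 was the 1 member of 10 called, where 5.97% of 18407 genes were. Leaving out all libraries of 1 number at a time gave differences of -1.76 to -1.08 and ended the call in each of the 3 cases (highest adjusted p 0.109). Pluripotency markers differed between the same WT libraries of day 6, with sums of 1411 to 1867 CPM in EB and 94.5 to 216 CPM in NPC. Of the 10 pluripotency genes, 5 had a lower change in NPC by the same test and 0 a higher one. Their part in the Jarid2 difference was not tested. The rise of Jarid2 from day 6 to day 8 in NPC was 0.79 to 1.06 on the log2 scale with 1 library left out, and was lost without day 6 library 1 or 3 or day 8 library 1 or 2. Its DNA-binding partner Aebp2 did not pass in any WT comparison over time. It measured 56.5 to 77.2 CPM on day 0 and 40.5 to 74.4 CPM on day 10 of EB, and 72.8 to 95.7 CPM on day 0 and 91.1 to 99.0 CPM on day 8 of NPC. Its changes to the last day were -0.22 (95% interval -0.72 to 0.28) and 0.14 (-0.19 to 0.47). The per kilobase ratio of Jarid2 to Aebp2 was 9.74 to 13.5 on day 0 of NPC, 2.01 to 3.31 on day 6 and 4.6 to 6.4 on day 8, and in EB it went from 10.5 to 13.4 on day 0 to 4.05 to 6.04 on day 10.

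**Figure D2:**
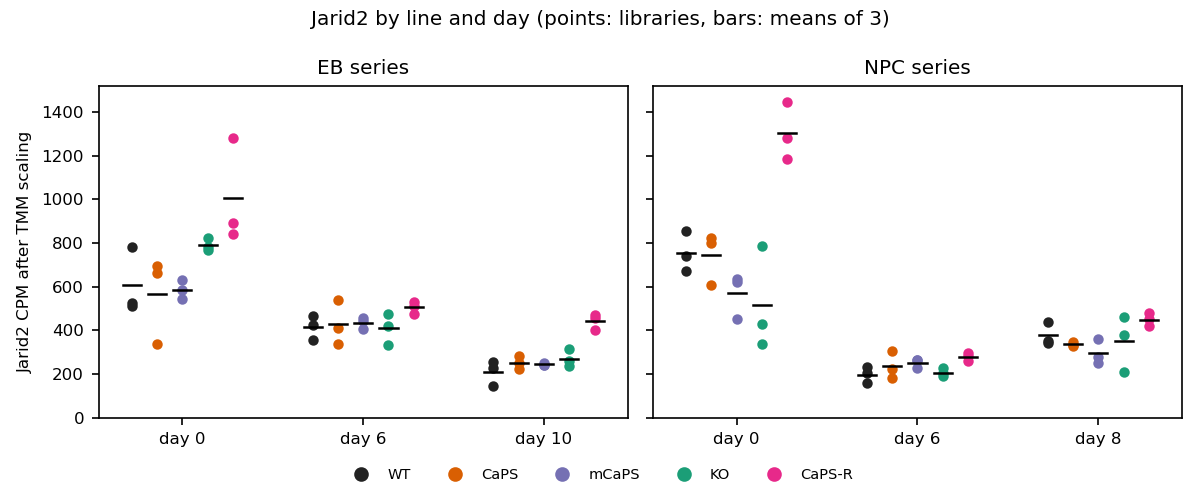
Jarid2 level (y axis, CPM after TMM scaling, from 0) by day (x axis) in the EB and NPC series, with points for libraries, colours for lines and bars for the means of 3. CaPS-R was scaled jointly with the other lines, over the genes its table shares with theirs. In NPC the day 6 libraries of WT lie at 157 to 232 CPM, under those of day 8 at 344 to 440 CPM.

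In CaPS and CaPS-R the day 6 libraries of NPC were also the lowest, while in the other lines days 6 and 8 overlapped. Jarid2 in NPC CaPS was 823, 802 and 607 CPM on day 0, 180, 304 and 222 CPM on day 6, and 328, 349 and 332 CPM on day 8. CaPS-R, scaled jointly with the other lines, had 1447, 1185 and 1280 CPM, then 296, 282 and 262 CPM, then 419, 451 and 479 CPM. In both lines every day 6 library lay below every day 8 library. In the mCaPS line day 6 (266, 228 and 263 CPM) overlapped day 8 (359, 250 and 276 CPM), and in the line labelled KO day 6 (204, 190 and 227 CPM) overlapped day 8 (462, 380 and 211 CPM) through 1 library. The change from day 6 to day 8 was tested in WT only, and the share of all genes with days apart in this way was not computed. Endoderm markers (6 genes) on day 6 summed to 81.8, 748 and 578 CPM in CaPS and 71.4 to 103 CPM in WT. Their part in these Jarid2 levels was not tested. On day 0 of NPC the line labelled KO had 335, 429 and 786 CPM beside 741, 854 and 670 CPM in WT, a difference that passed only without KO library 3 (-0.98, adjusted p = 0.0158, edgeR). Fibroblast markers summed to 72.4 to 117 CPM in these KO libraries and 309 to 3289 CPM in those of WT. Their part in the Jarid2 difference was not tested.

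Mtf2, the main Polycomb-like subunit of stem cells, fell in both series. In EB it measured 394, 257 and 212 CPM on day 0, 272, 125 and 168 CPM on day 6, and 107, 75.9 and 95.6 CPM on day 10, and the day 10 libraries were below all others. In NPC it measured 143, 330 and 293 CPM on day 0, 136, 156 and 134 CPM on day 6, and 129, 146 and 123 CPM on day 8, where the lowest day 0 library overlapped both later days. The change to the last day was -1.63 ± 0.35 in EB (adjusted p = 0.000732) and -0.95 ± 0.24 in NPC (adjusted p = 0.00141, edgeR). From day 0 to day 6 it passed in NPC (-0.84 ± 0.24, adjusted p = 0.00571) but not without day 0 library 2, and from day 6 to day 10 it passed in EB (-1.02 ± 0.34, adjusted p = 0.0387) but not in 5 of the 6 fits with 1 library left out (-1.24 to -0.66).

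Phf19, the other Polycomb-like subunit measured, was near the lower end of what these libraries resolve, with 8 to 1311 counts per library and a median of 273.5. In WT it measured 7.42, 11.6 and 11.9 CPM on day 0 of EB and 2.40, 3.45 and 2.68 CPM on day 10. In NPC it measured 13.6, 10.1 and 8.52 CPM on day 0, 3.94, 10.8 and 10.1 CPM on day 6, and 1.90, 2.58 and 4.28 CPM on day 8. The last days lay below day 0 with no overlap in both series, at log2 changes of -1.86 ± 0.43 (adjusted p = 0.00181) and -1.88 ± 0.39 (adjusted p = 0.000213, edgeR). The NPC fall came after day 6 (-1.51 ± 0.39 from day 6 to day 8, adjusted p = 0.0162), though day 6 library 1 overlapped day 8 and the call was lost without any of 4 libraries (log2 change -1.88 to -1.26). Between days 6 and 10 of EB, 3 members were lower (Jarid2, Mtf2 and Phf19, the last at -1.38 ± 0.43 and lost in 5 of 6 fits with 1 library left out) where 16.2% of genes passed. The numbers pair the WT libraries of EB. With the replicate number as a block in an edgeR fit of those days alone, Eed (-0.65, adjusted p = 0.0103) and Suz12 (-0.80, adjusted p = 0.00438) joined them, which makes 5. The share of all genes called in that blocked fit was not computed.

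The same genes can be followed through the other 4 lines. Eed and Mtf2 were lower on the last day in all 10 time courses of line and series, at log2 changes of -1.97 to -1.11 for Eed and -1.63 to -0.78 for Mtf2. Every Eed call held with any 1 library left out. The Mtf2 call was lost with some library left out in EB mCaPS (-1.30 to -0.76), EB of the line labelled KO (-1.24 to -1.04), EB CaPS-R (-1.49 to -0.82) and NPC CaPS (-1.11 to -0.55). Jarid2 was lower in 9 of 10 (-1.60 to -0.56 over all 10), the exception being the NPC course of the line labelled KO (-0.56), whose day 0 libraries spread from 335 to 786 CPM. Phf19 was lower in 8 of 10 (-4.04 to -0.69), and did not pass in EB of the line labelled KO and in EB of CaPS-R. The -4.04 was that of NPC CaPS-R, whose Phf19 mean on day 8 was 1.68 CPM, the lowest of all groups. Suz12 was lower in 5 of 10 (-1.09 to -0.25), Rbbp4 in 3 (-0.49 to -0.15) and Rbbp7 in 2 (-0.71 to 0.59). Aebp2 passed in 0 of 10 (-0.43 to 0.36) by edgeR, with an unadjusted p below 0.05 in 2, and by DESeq2 it passed in 1, EB CaPS-R, at -0.45 with an adjusted p of 0.0443.

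**Figure D3:**
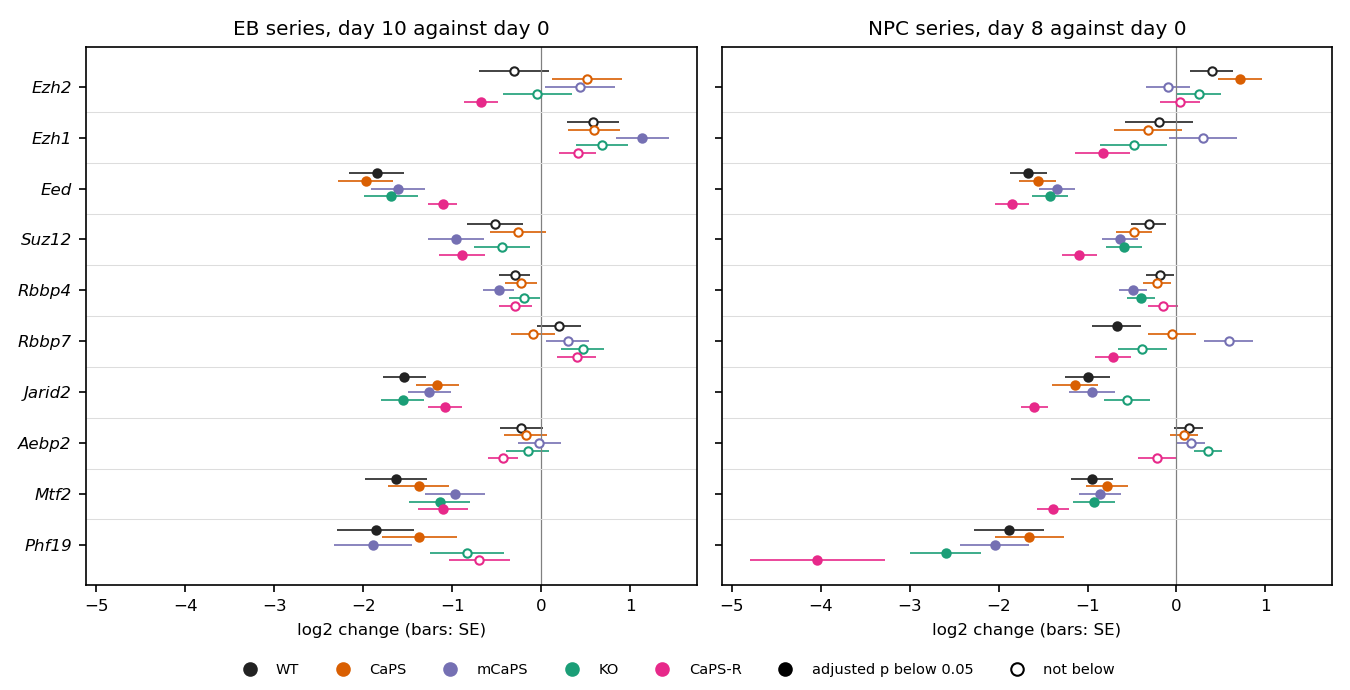
Log2 change of each member (y axis) from day 0 to the last day of its series (x axis, bars are SE) in the 5 lines, by edgeR. Filled points passed at an adjusted p below 0.05. Eed and Mtf2 are filled and below 0 in all 10 courses, and Aebp2 is open in all 10.

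The pluripotency sum on day 10 of EB was 1386 to 1548 CPM in CaPS-R, scaled jointly with the other lines. It was 364 to 691 CPM in CaPS, 129 to 139 CPM in mCaPS and 234 to 1250 CPM in the line labelled KO. WT had 133 to 386 CPM, and the part of this sum in the changes was not tested. By line, the members called in EB on day 10 against day 0 were 4 lower in CaPS (26.7% of all genes passed), 6 lower and 1 higher in mCaPS (36.3%), 3 lower in the line labelled KO (25.3%) and 5 lower in CaPS-R (21.5%). In NPC on day 8 against day 0 they were 4 lower and 1 higher in CaPS (48.6%), 6 lower in mCaPS (46.2%), 5 lower in the line labelled KO (43.3%) and 7 lower in CaPS-R (47.8%). The percentages for both series are of genes that passed in either direction, and not of those that were lower. Ezh2, Ezh1, Suz12, Rbbp4 and Rbbp7 passed in 5 or fewer of the 10 courses. Ezh1 rose in EB mCaPS, from 20.9, 22.7 and 16.4 CPM on day 0 to 44.7, 44.5 and 43.7 CPM on day 10, with no overlap (1.141 ± 0.296, adjusted p = 0.00337). It fell in NPC CaPS-R, from 35.9, 25.4 and 25.4 CPM to 21.4, 16.1 and 13.6 CPM (-0.83 ± 0.31, adjusted p = 0.0429), and this call was lost in 5 of the 6 fits with 1 library left out. Ezh2 rose in NPC CaPS, from 70.2, 111 and 117 CPM to 222, 106 and 164 CPM, which overlap (0.72 ± 0.25, adjusted p = 0.0172), and fell in EB CaPS-R, from 229, 262 and 296 CPM to 200, 113 and 147 CPM (-0.68 ± 0.19, adjusted p = 0.0254). Both Ezh2 calls were lost without any 1 of 3 libraries, at log2 changes of 0.36 to 0.96 in CaPS and -0.89 to -0.53 in CaPS-R.

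These lists of calls differ between lines, and the difference itself was tested. The change from day 0 to the last day was compared with that of WT in 40 member tests per series. In EB 0 of 40 passed by edgeR, 0 had an unadjusted p below 0.05 and 0 passed by DESeq2, where 0% of all genes did in CaPS and in mCaPS, 0.00562% in the line labelled KO and 0.624% in CaPS-R. In NPC 1 of 40 did by edgeR and 1 by DESeq2, and 3 had an unadjusted p below 0.05. The call was Rbbp7 in mCaPS (9.49% of genes), where 0% of genes passed in CaPS, 0.337% in the line labelled KO and 0.691% in CaPS-R. Phf19 in CaPS-R differed from WT by -1.98 ± 0.71 (adjusted p = 0.213), and it passed without the libraries numbered 1 (-2.75, adjusted p = 0.0367). Within CaPS alone, the change of Phf19 in EB was -1.37 ± 0.43 (adjusted p = 0.0175), and -0.46 without day 0 library 3 (adjusted p = 0.411), and the call was also lost without day 10 library 2. Same-numbered libraries of this line deviated together, and with the number as a block in a fit of the 2 days alone the change was -1.11 with an adjusted p of 0.0588. In EB of the line labelled KO, where they did too, the blocked edgeR fit of the 2 days alone called 5 members in place of 3. It added Suz12 at -0.44 (adjusted p = 0.0156) and Rbbp7 at 0.48 (adjusted p = 0.0223). The fit of the 2 days without a block added the same genes, at -0.44 (adjusted p = 0.0164) and 0.47 (adjusted p = 0.0209), so the gain did not depend on the block. The share of all genes called in these fits was not computed.

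Set against WT on the same day, few tests of PRC2 subunits passed. Over CaPS, mCaPS and the line labelled KO, 3 of 180 member tests passed by edgeR, all of them in NPC mCaPS, and 13 of 180 had an unadjusted p below 0.05. In EB 0 of 90 passed by edgeR, 6 had an unadjusted p below 0.05, and by DESeq2 1 passed, Rbbp4 in mCaPS on day 0 (0.53, adjusted p = 0.0354). On the first, middle and last day of EB, 0%, 0% and 0.00562% of all genes differed from WT in CaPS, 0.916%, 0.54% and 0.708% in mCaPS, and 0.641%, 0.646% and 0.877% in the line labelled KO. In NPC these shares were 0%, 0% and 0.0112% in CaPS, 3.02%, 2.22% and 18.5% in mCaPS, and 5.52%, 0.0281% and 0.0505% in the line labelled KO. The 3 that passed were Rbbp7 on day 6, Rbbp7 on day 8 and Ezh2 on day 8. The WT libraries are the controls of all 3 lines, so these comparisons are not independent.

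Rbbp7, the X-linked chaperone gene, had the largest log2 differences of these 180 tests. On day 6 of NPC its 3 mCaPS libraries had 755, 656 and 792 CPM, beside 233, 269 and 306 CPM in WT. On day 8 they had 458, 497 and 532 CPM, beside 148, 152 and 223 CPM. On day 0 they had 365, 270 and 357 CPM and overlapped the 242 to 301 CPM of WT. The groups were apart on days 6 and 8, at 2.72-fold (log2 1.45 ± 0.28, adjusted p = 0.0142) and 2.85-fold (1.51 ± 0.28, adjusted p = 0.00112, edgeR). From day 0 to day 8 Rbbp7 thus changed differently in mCaPS and in WT, by 1.26 ± 0.39 on the log2 scale (adjusted p = 0.0388), where 9.49% of genes passed that test. Fibroblast markers differed between the same libraries, at 86.7 to 145 CPM in mCaPS beside 309 to 3289 CPM in WT on day 0. On day 8 they were at 719 to 2504 CPM beside 72.6 to 240 CPM. Whether feeder cells or differentiated cells expressed them on day 8 was not tested. Of the 10 genes, 8 had a higher change over time in mCaPS by the same test, and their part in the Rbbp7 value was not tested. The day 8 difference passed with any 1 library left out. The day 6 difference was lost without WT library 1 or 2 or mCaPS library 3 (1.35 to 1.55), and the difference of changes was lost in 8 of 12 such fits (1.13 to 1.47).

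**Figure D4:**
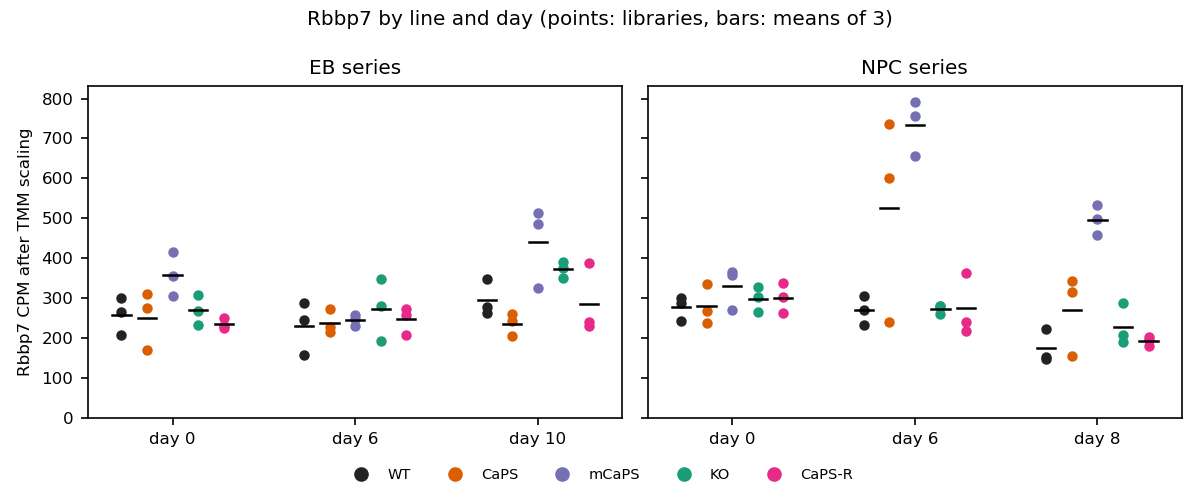
Rbbp7 level (y axis, CPM after TMM scaling, from 0) by day (x axis) in the EB and NPC series, with points for libraries, colours for lines and bars for the means of 3. CaPS-R was scaled jointly with the other lines, over the genes its table shares with theirs. On day 6 of NPC the mCaPS libraries lie at 656 to 792 CPM and WT at 233 to 306 CPM. CaPS has 1 library at 240 CPM and 2 at 600 and 736 CPM.

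The CaPS libraries fell on both sides. On day 6 of NPC they had 240, 736 and 600 CPM of Rbbp7, and on day 8 154, 343 and 316 CPM, so the library numbered 1 was at the WT level on both days and the other 2 were above every WT library. The difference from WT did not pass on either day with all 3 libraries. Without library 1 it was 1.31 on day 6 (adjusted p = 0.00824) and 0.94 on day 8 (adjusted p = 0.041). The line labelled KO had 281, 281 and 260 CPM on day 6 and 189, 208 and 288 CPM on day 8. CaPS-R, scaled jointly with the other lines, had 363, 241 and 218 CPM and then 201, 180 and 195 CPM.

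Markers of cell types moved with Rbbp7 in these libraries. The summed level of 6 endoderm markers on day 6 of NPC was 607, 346 and 820 CPM in mCaPS, 81.8, 748 and 578 CPM in CaPS in the order of the library numbers, 71.4 to 103 CPM in WT and 30.3 to 61.4 CPM in the line labelled KO. The 8 markers of mesoderm, heart and blood summed to 477, 98.1 and 475 CPM in mCaPS, 11.3, 609 and 387 CPM in CaPS and 9.16 to 53.0 CPM in WT. Neuron markers (6 genes) ran the other way: on day 8 they summed to 95.7, 66.7 and 9.99 CPM in mCaPS, 1505, 129 and 346 CPM in CaPS, and 860 to 1748 CPM in WT. Fibroblast markers (10 genes) were also higher, at 375 to 1368 CPM in mCaPS, 121, 741 and 456 CPM in CaPS and 84.6 to 196 CPM in WT on day 6. All members of these lists were detected in each of those groups. The part of cell composition in the Rbbp7 difference was not tested.

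**Figure D5:**
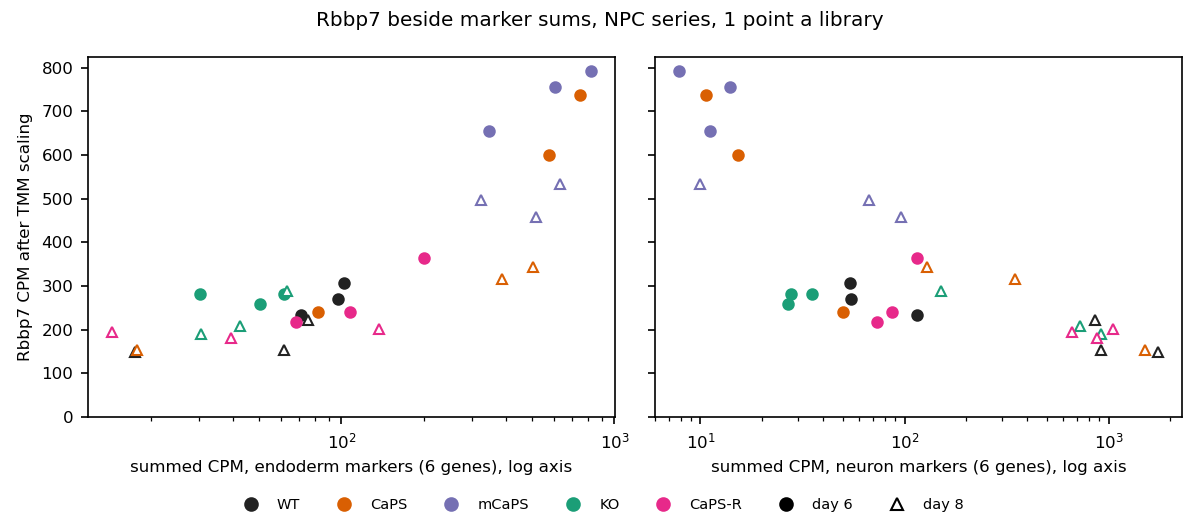
Rbbp7 level (y axis, CPM after TMM scaling, from 0) against the summed level of endoderm markers (left) and neuron markers (right, x axes in CPM on a log scale) in the 30 NPC libraries of days 6 and 8, with 1 point per library. The 3 mCaPS libraries of day 6 lie at 656 to 792 CPM of Rbbp7 and 346 to 820 CPM of endoderm markers, and WT of day 6 at 233 to 306 and 71.4 to 103 CPM.

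Rbbp7 lies on chromosome X, at chrX:162760372-162779090 on the plus strand in build mm10. The median log2 difference between mCaPS and WT over 643 X-linked genes tested was 0.20 on day 0, 0.02 on day 6 and 0.01 on day 8, beside -0.001, -0.01 and 0 over 17163 autosomal genes. On day 0 4.98% of the X-linked and 2.95% of the autosomal genes passed. Of the other 7 genes tested whose start lies within 1 Mb of that of Rbbp7, none passed on day 6 or day 8, and Ctps2, 141 kb away, passed on day 0 (0.77 ± 0.20, adjusted p = 0.0314). Its nearest neighbours were Gm15201, 25 kb before (1.46 ± 1.40 on day 6, adjusted p = 0.625), and Txlng, whose interval starts at 162778917 and so overlaps the 3′ end of Rbbp7 (-0.25 ± 0.23, adjusted p = 0.624). The chaperone paralog Rbbp4 did not pass in mCaPS on either day (0.13 ± 0.16 and -0.16 ± 0.16). The per kilobase ratio of Rbbp7 to Rbbp4 was 3.54 to 4.27 in mCaPS and 1.24 to 1.83 in WT on day 6, and 2.55 to 4.07 and 0.712 to 1.28 on day 8. In EB on day 10 the mCaPS libraries of Rbbp7 (326, 514 and 486 CPM) lay above those of CaPS (242, 261 and 204 CPM), at a log2 difference of CaPS from mCaPS of -0.91 ± 0.25 (adjusted p = 0.0357, edgeR), where 3.18% of genes passed (0.793% on day 0 and 1.12% on day 6). This was lost without any 1 of 4 libraries (-1.09 to -0.79), and the WT libraries of that day (277, 263 and 347 CPM) overlapped those of mCaPS. Pluripotency markers differed between the same CaPS and mCaPS libraries, with 8 of 10 genes higher in CaPS and sums of 364 to 691 CPM beside 129 to 139 CPM. Endoderm markers summed to 94.1 to 164 CPM in CaPS and 165 to 282 CPM in mCaPS. Neuron markers summed to 40.6, 44.9 and 770 CPM in CaPS and 17.0 to 30.5 CPM in mCaPS. The part of these markers in the Rbbp7 difference was not tested. In NPC 0 of 30 member tests of CaPS against mCaPS passed by edgeR (2 with an unadjusted p below 0.05), where 2.1%, 0.0112% and 1.59% of genes did on days 0, 6 and 8, and Rbbp7 on day 8 (-0.87 ± 0.28, adjusted p = 0.0933) passed by DESeq2 (-0.88, adjusted p = 0.0408).

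Ezh2 was lower in mCaPS than in WT on day 8 of NPC, at 135, 121 and 98.7 CPM beside 256, 174 and 195 CPM, with no overlap (-0.81 ± 0.25, adjusted p = 0.0225, edgeR). The call was lost without WT library 1 or mCaPS library 2 or 3 (-0.93 to -0.60). These are the libraries with the low neuron and high endoderm sums given above, whose part was not tested. On day 6 the values were 142, 150 and 142 CPM beside 165, 194 and 158 CPM, apart but with a difference of -0.25 ± 0.25 that did not pass. Ezh2 values were also lower in CaPS than in WT stem cells when libraries of the same number were compared. On day 0 of NPC CaPS had 70.2, 111 and 117 CPM and WT 114, 188 and 173 CPM, lower in each of the 3 pairs of the same number. On day 0 of EB CaPS had 49.4, 103 and 17.8 CPM and WT 81.3, 155 and 127 CPM, again lower in 3 of 3 pairs. Neither passed in the fit of all lines (-0.67 ± 0.25 in NPC and -1.10 ± 0.40 in EB, adjusted p = 1 for both, edgeR), where 0% of genes passed. Same-numbered CaPS and WT libraries deviated together, and with the number as a block in a fit of the 2 groups alone the NPC difference was -0.67 ± 0.08 with an adjusted p of 0.00118, while that in EB was -1.35 ± 0.45 with an adjusted p of 0.996. The share of all genes called in these blocked fits, or lower in every pair, was not computed. In EB the mCaPS library 3 of day 0 was low as well, at 28.3 CPM, and this is the library with Rn45s at 88.7% of its counts and fibroblast markers at 11230 CPM, beside 314 to 2865 CPM in WT. The part of either in the level of Ezh2 was not tested.

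Over the 12 group means of WT, CaPS, mCaPS and the line labelled KO, correlations between members differed from pair to pair, a description over points that share days and lines. Pearson's r of Eed with Mtf2 was 0.94 in EB and 0.98 in NPC, of Eed with Jarid2 0.92 and 0.81, and of Jarid2 with Mtf2 0.97 and 0.79. For Phf19 it was 0.73 and 0.79 with Eed, 0.80 and 0.80 with Mtf2, and 0.82 and 0.33 with Jarid2. Suz12, which did not pass in WT, had 0.71 and 0.91 with Eed, 0.79 and 0.93 with Mtf2, and 0.83 and 0.73 with Jarid2. For Ezh2 it was -0.24 and -0.47 with Eed, and 0.11 and -0.36 with Suz12. Among 17344 genes tested in both series, those most like Ezh2 by the smaller of the 2 correlations were Parp16 (r 0.88 in EB and 0.83 in NPC), Zbtb14 (0.80 and 0.81), Ankhd1, Mettl14 and Gpatch8. Those most like Ezh1 were Afdn (0.91 and 0.90), Cers4 (0.87 and 0.87), Arrdc3, Zfp217 and Clic5. By the same measure, applied after the values had been seen, the genes most like Rbbp7 were Furin (0.88 and 0.88), Gpx3 (0.89 and 0.88), Ece1 (0.89 and 0.86), Rreb1 and 2900026A02Rik, and those most like Jarid2 were Kat6b (0.96 and 0.97), Cnot10 and Zfp57.

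Other partners of PRC2 changed in both directions in WT. Of 7 such genes tested, 2 passed on day 10 of EB, both lower (median log2 change -0.69, beside -0.02 over all genes), and 2 were higher and 2 lower on day 8 of NPC (median 0.02, beside 0.05). Over all genes 29.2% passed in EB and 52.4% in NPC, so these shares lie near the background. Same-numbered WT libraries of EB deviated together, and with the number as a block in a fit of the 2 days alone 4 of 7 passed in EB (37.7% of all genes), 1 higher and 3 lower. Epop, which links the MTF2 form of PRC2 to elongin, had a mean of 329 ± 162 CPM on day 0 of NPC and 26.0 ± 0.912 CPM on day 8 (log2 change -3.66 ± 0.54, adjusted p = 2.63e-06), and in EB its change was -2.16 ± 0.87 (adjusted p = 0.0593), which passed with the block (-2.39 ± 0.26, adjusted p = 0.000323). Lcor and Lcorl, which encode the PALI partners that occupy the place of EPOP, rose in NPC, Lcor from 12.9 ± 1.31 to 45.9 ± 2.41 CPM (1.83 ± 0.20, adjusted p = 2.06e-08) and Lcorl from 11.7 ± 6.02 to 56.4 ± 1.43 CPM (2.27 ± 0.34, adjusted p = 2.98e-06). In EB the changes were 0.36 ± 0.40 and 1.001 ± 0.414 and did not pass, and with the block Lcorl did (1.13 ± 0.25, adjusted p = 0.00843). Elob, an elongin subunit, fell in both series (-0.73 ± 0.22 in EB and -0.88 ± 0.18 in NPC, adjusted p = 0.0117 and 0.000181). AU022751, an older symbol of the PRC2 inhibitor gene Ezhip, fell in EB from a level of 0.831 to 1.90 CPM to one of 0 to 0.315 CPM, or at most 12 counts in a library (adjusted p = 0.0128). Phf1 and Eloc did not pass in either series.

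Kdm6b, a demethylase gene for the mark, measured 5.045, 83.3 and 106 CPM in WT on day 0 of EB and 23.9, 261 and 234 CPM on day 10, in the order of the library numbers. Each library was higher on day 10 than the library of its number on day 0, and library 1 lay below the others on both days. Without a block its change was 1.41 ± 0.96 (adjusted p = 0.286), and 0 of the 3 demethylase genes passed in EB. With the replicate number as a block in a fit of the 2 days alone, 2 of 3 passed there, Kdm6b at 1.68 ± 0.24 (adjusted p = 0.00103) and Uty at 0.91 ± 0.21 (adjusted p = 0.00908), and with the block over all libraries neither did (adjusted p = 0.178 and 0.343). In NPC 2 of 3 rose without a block: Kdm6b from 114 ± 21.4 to 400 ± 65.2 CPM (1.81 ± 0.25, adjusted p = 1.14e-06) and Uty by 0.96 ± 0.33 (adjusted p = 0.0158), while Kdm6a did not pass (0.22 ± 0.19). Of 10 other enzymes and cofactors of the pathway, 1 was higher and 1 lower in EB, and 3 were higher and 2 lower in NPC. These counts are to be read against the same 29.2% and 52.4% of all genes. With the block in the fit of the 2 EB days alone, 3 were higher (Nsd2, Nsd3 and Ash1l) and none lower, and Asxl2 had an adjusted p of 0.0518. The methyltransferase gene Nsd2, whose mark on a neighbouring lysine hinders PRC2, rose in both (1.57 ± 0.22, adjusted p = 6.54e-06, and 2.22 ± 0.28, adjusted p = 2.9e-07), Nsd3 and Ash1l rose in NPC (1.003 ± 0.132 and 1.142 ± 0.163), and Asxl2 fell in both (-0.57 ± 0.22 and -0.70 ± 0.18), with Asxl1 lower in NPC (-0.40 ± 0.16). Proliferation genes, whose levels are known to go with those of several PRC2 subunits, were lower in 6 of 15 cases in EB and 8 of 15 in NPC, with medians of -0.61 and -0.69, where 14.5% and 24.9% of all genes were lower. Their part in the changes of Eed, Jarid2, Mtf2 and Phf19 was not tested.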

How the data were processed

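Total RNA of mouse J1 cells was sequenced in 90 libraries. The authors deposited whole-number read counts per gene with exon lengths, per the file headers. Tools named in the submitters' processing notes are STAR 2.7.0, cutadapt 1.14, HOMER 4.10.4, featureCounts 1.6.3 and edgeR, with build mm10, and strand use in counting is not given in the sources used here. A further line with 9 columns was not used here, and date-like names (23 in EB, 22 in each CaPS-R table) and 1 partial line were left out.

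Models were made with edgeR 4.0.16 (limma 3.58.1, R 4.3.3; filterByExpr, TMM, robust quasi-likelihood F test, two-sided), with 36 libraries a series in 1 model and CaPS-R in its own. The series were joined for the Jarid2 test of EB against NPC, and CaPS-R with the other lines for the changes against WT. Levels are CPM after TMM scaling, those of CaPS-R from the joint fit with the other lines, and SE was worked back from F. The scripts were tested on simulated counts. The p-values were adjusted over all genes. DESeq2 1.42.0, other scaling, no filter, fewer libraries and replicate blocks were alternatives. The members and lists were chosen with earlier results of these data known. All members are given, with statistics for those past an adjusted p of 0.05 and ranges for the rest, and the 5 genes most like Ezh2 and Ezh1.

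Same-numbered libraries deviated together (every r above 0.1, from 0.197 to 0.943) in 12 of 47 comparisons, and these pairs rest on the data, as the labels give the numbers no meaning.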

Additional observations from a re-analysis of the deposited data

Results flagged for a closer look

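Rbbp7 and Jarid2 each had a change over time that differed between groups by a test of the difference itself. Rbbp7 changed by 1.257 more on the log2 scale from day 0 to day 8 of NPC in mCaPS than in WT (SE 0.389, adjusted p = 0.0388, edgeR), and endoderm, neuron and fibroblast marker sums differed between the same libraries. The log2 change of Jarid2 from day 0 to day 6 in WT was lower in NPC than in EB, with a difference of -1.365 (SE 0.347, adjusted p = 0.00966, edgeR). Pluripotency marker sums also differed between the day 6 libraries of these series, and their part was not tested. Both calls were lost in some or all fits with fewer libraries, as given beside them.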

How the results depend on the processing

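No called member result changed direction. Of the 66 called, DESeq2 size factors, the DESeq2 test, leaving out Rn45s and the replicate block over all libraries each kept 66, no filter on low counts kept 64, fits of only the groups compared 50, and a replicate block in such fits 53. With DESeq2 in place of edgeR the count of members called was 1 in place of 0 for EB mCaPS against WT, 2 in place of 1 for EB CaPS against mCaPS, and 1 in place of 0 for NPC CaPS against mCaPS. Without libraries 1 of WT and CaPS in EB it was 2 in place of 1 for EB WT day 6 against day 0 and 2 in place of 1 for EB CaPS against mCaPS. Without EB day 0 mCaPS 3 and day 6 CaPS 3 it was 5 in place of 3 for EB WT day 10 against day 6. The share of all genes called by DESeq2 or without these libraries was not computed.

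Fits of only the groups compared, with fewer samples, gave 0 for EB WT day 6 against day 0, 1 for EB WT day 10 against day 6, 1 for EB CaPS (4 with all libraries), 5 for EB of the line labelled KO (3), 3 for EB CaPS-R (5), 0 for EB CaPS against mCaPS (1), 1 for NPC WT day 8 against day 6 (2) and 3 for NPC CaPS (5). With the replicate number as a block in such fits, the counts were 5 for EB WT day 10 against day 6, 5 for EB of the line labelled KO, 3 for EB CaPS-R, 0 for EB CaPS against mCaPS, 2 for NPC CaPS, 3 for NPC of the line labelled KO (5) and 1 for NPC CaPS against WT (0). The block over all libraries gave 1 for NPC CaPS against mCaPS (0). The cause of these shifts was not tested, and the share of all genes called in these fits was not computed. Of those comparisons the numbers pair EB WT, EB of the line labelled KO and CaPS against WT, and beyond the values given with them and Phf19 in EB CaPS, the block in fits of the groups alone moved no count of members in paired comparisons by over 1.5 times. Blocked fits of the other PRC2 and demethylase genes in WT were added after seeing the data.

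With 1 library left out, counts ranged from 0 to 1 for EB WT day 6 against day 0 and 1 to 4 for EB WT day 10 against day 6. They were 4 to 6 for EB mCaPS, 2 to 5 for EB CaPS-R and 0 to 1 for EB CaPS against mCaPS. In NPC they were 0 to 2 for WT day 8 against day 6 and 3 to 6 for the time course of the line labelled KO. They were 0 to 1 in NPC for CaPS against WT, for the line labelled KO against WT and for CaPS against mCaPS. Changes against WT in NPC gave 0 to 2, the 2 in the joint fit with CaPS-R without all libraries numbered 1. The WT change in NPC against EB was refitted only without all libraries of 1 number, and gave 0 in each of 3 fits. For the fits with libraries left out, the share of all genes called was not computed. Alternatives that leave out EB libraries give no value for NPC or for CaPS-R alone. Depth limits Phf19 most, at 8 to 1311 counts a library.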
